A study of Saccharomyces cerevisiae with 24 samples.

Results

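The genes described here encode factors that assemble the large subunit of the yeast ribosome. The group was given as a list of 56 gene names, a gene belonged to it if its symbol was on the list, and no measured value enters that rule. The group and the gene lists set beside it were, however, chosen with earlier results of these data known. Of the 56 genes, 50 were measured, among 4073 named genes on the arrays, each by 2 features (spots) of the same array. *RRP14*, *RRP15*, *RIX1*, *IPI3*, *ALB1* and *REI1* were not among the named features and were not analysed here.

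The study asked which genes are expressed differently when the transcription factor gene *FZF1*, which activates the sulfite efflux pump gene *SSU1*, is exchanged between yeast species. RNA came from a haploid laboratory *S. cerevisiae* strain, YJF173 (of S288C background and mating type a, with the mutations ho and ura3-52), in which native *FZF1* was replaced by the KANMX marker and 1 *FZF1* allele was integrated at *ura3*, so that every group carried the deletion and the plasmid. The alleles were the full length *S. paradoxus* gene, the C.P. chimera, whose noncoding region 5′ of the gene is from *S. cerevisiae* and coding region from *S. paradoxus*, the reverse P.C. chimera, with the noncoding region from *S. paradoxus* and the coding region from *S. cerevisiae*, and the full length *S. cerevisiae* gene. Each was sampled 15 min after sodium sulfite was added at 1 mM and, just before that, at 0 min, in rich medium made acid with tartaric acid. The 8 groups of 3 arrays gave 24 arrays, each hybridised together with a pool made of all the RNA samples. No samples were left without sulfite for 15 min, so sulfite and the time in culture cannot be told apart.

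A ribosomal subunit is built in the nucleolus around newly transcribed rRNA, by a sequence of protein factors that bind, remodel and leave the particle while it moves through the nucleoplasm and is exported to the cytoplasm. For the large subunit these factors include RNA helicases, GTPases, rRNA methyltransferases, proteins on the internal transcribed spacer between the rRNAs, and export factors. In yeast most of their genes belong to the ribosome biogenesis regulon, which is transcribed together in growing cells and is known to be lowered together in many kinds of stress.

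Levels are given as log2 of sample over pool, averaged over the features of a gene and centred on the median gene of each array, so that a level is relative to the other genes and says nothing of RNA per cell. In RNA from whole cultures, fewer cells that express a gene and less RNA per cell cannot be told apart. Each array had values for between 12996 and 13224 of 15744 features. As a check of the labels, *SSU1* was higher at 15 min than at 0 min with every allele, and the *FZF1* features, made for the *S. cerevisiae* sequence, read between −5.57 and −2.47 in the groups with the *S. paradoxus* coding region. The array labelled *S. cerevisiae* allele, 0 min, replicate 2 read −3.63 for *FZF1*, while the rest of its group read 0.18 and −0.11, which goes against its label. Most counts between alleles from the main fit that use the group are also given without it. Counts with array weights, with Cy3 arrays alone, without the arrays numbered 3 and from the study's model include it. This array is the second of the 3 values wherever the *S. cerevisiae* arrays at 0 min are listed. The sample was in Cy5 on 1 array of each group and in Cy3 on the other arrays.

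All 50 genes fell after sulfite. The mean response over the 4 alleles (15 min minus 0 min, log2) had a median of −2.28 over the 50 genes, against 0.01 over all 4071 genes tested, and it lay between −3.19 for *DBP2* and −1.21 for *TIF6*. In limma, 50 of 50 were called lower at an adjusted p under 0.05, where 39.6% of all genes were, and the highest adjusted p among them was 1e-07. The fall was at least 2-fold for all 50, against 10% of all genes, and at least 4-fold for 37, against 2.82% of all genes. Of the 20 genes of the whole array with the lowest responses 7 were from this group, and of the 100 lowest 32 were. The replicates are separate samples that the methods call independent, and the p values measure the spread between them. By the methods each culture was sampled at both times. The labels do not say which arrays share a culture, and this fit did not pair them.

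The groups did not overlap. For each of the 50 genes, all 12 arrays at 15 min read lower than all 12 arrays at 0 min, which was so for 19.5% of all genes. Taken allele by allele, 50 of 50 were called lower with the *S. paradoxus* allele (29.7% of all genes), the C.P. chimera (29.3%), the P.C. chimera (28.6%) and the *S. cerevisiae* allele (29.4%). The share of all genes called lower with every allele was 22.4%. The standard error of a mean response had a median of 0.09 over the 50 genes, while the responses themselves had an SD of 0.50 between genes.

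**Figure D1:**
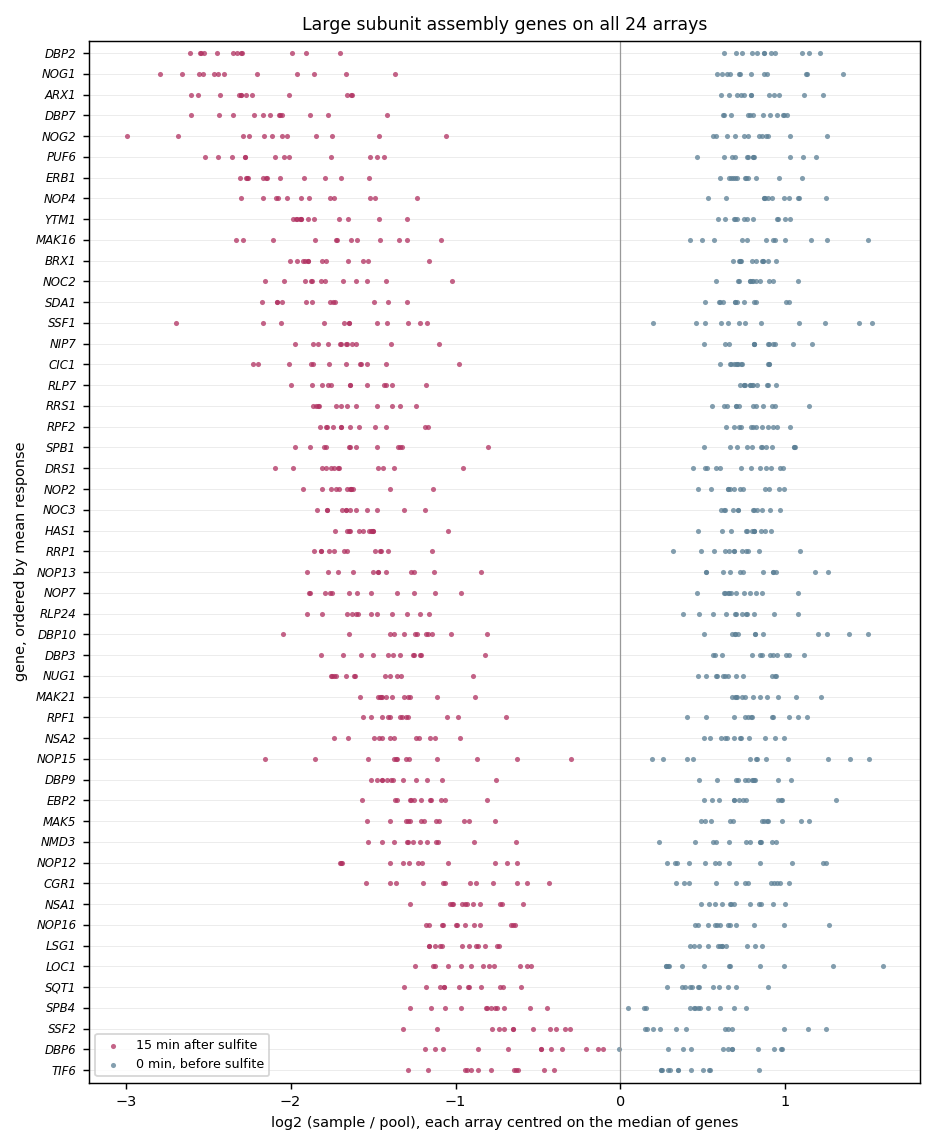
Level of each of the 50 genes on each of the 24 arrays, as log2 of sample over pool centred on the median gene (horizontal axis), with genes ordered by mean response (vertical axis); 12 points per gene are arrays at 15 min and 12 are arrays at 0 min. For every gene the points at 15 min lie below those at 0 min, with the narrowest gap for *DBP6* (−0.11 against −0.01).

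The RNA helicases unwind or release rRNA and small nucleolar RNAs in the early particle. All 10 fell, 7 of them at least 4-fold, with a median of −2.22. *DBP2*, a DEAD-box helicase that also acts on mRNA, had the lowest response of the 50 genes. On the arrays at 15 min *DBP2* had a lowest log2 ratio of −2.61, a median of −2.34 and a highest of −1.70, and on those at 0 min a lowest of 0.63, a median of 0.87 and a highest of 1.21. This was a response of −3.19 (SE 0.09, adjusted p = 1.85e-17), or 9.13-fold lower at 15 min. *DBP7*, a helicase of early particles, followed at −2.93 (SE 0.10), with log2 ratios between −2.61 and −1.42 (median −2.10) at 15 min and between 0.62 and 1.01 (median 0.83) at 0 min. *DRS1* (−2.38), *HAS1* (−2.30), *DBP10* (−2.23), *DBP3* (−2.22), *DBP9* (−2.07) and *MAK5* (−1.97) lay close to the median of the group.

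The other helicases of the list, *SPB4* and *DBP6*, fell least among the helicases. *SPB4* had log2 ratios between −1.27 and −0.45 (median −0.80) at 15 min and between 0.05 and 0.76 (median 0.46) at 0 min, a response of −1.27 (SE 0.09, adjusted p = 7.22e-11). *DBP6* had log2 ratios between −1.19 and −0.11 (median −0.48) at 15 min and between −0.01 and 0.98 (median 0.66) at 0 min, a response of −1.21 (SE 0.14, adjusted p = 1e-07). *DBP6* came closest of all to an overlap, and its level moved with the dye: within a group the Cy5 array read 0.61 lower than the Cy3 arrays on average, and it was lower in all 8 groups. Within Cy3 arrays alone its response was −1.15.

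The 4 GTPases act as switches that admit or release other factors. *NOG1*, which joins in the nucleolus and leaves in the cytoplasm, had log2 ratios between −2.79 and −1.37 (median −2.42) at 15 min and between 0.58 and 1.35 (median 0.76) at 0 min. Its response was −3.08 (SE 0.15, adjusted p = 4.64e-14), an 8.48-fold lower level at 15 min. *NOG2*, which acts in the nucleus, had the widest spread at 15 min of the genes named so far, between −2.99 and −1.06 (median −2.08), against 0.56 and 1.26 (median 0.81) at 0 min, with a response of −2.87 (SE 0.15). Both *NOG2* extremes at 15 min came from Cy5 arrays, −2.99 with the *S. cerevisiae* allele and −1.06 with the *S. paradoxus* allele. The nuclear *NUG1* was at −2.21, and the cytoplasmic *LSG1*, which releases the export adaptor, at −1.58. The response of *LSG1* (SE 0.07) was the smallest of the 4.

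Both rRNA methyltransferases, *SPB1* (−2.39, SE 0.10) and *NOP2* (−2.38, SE 0.07), fell more than 4-fold. Of the Nop7 complex and the factors on the internal transcribed spacer, all 9 fell at least 4-fold, with a median of −2.43. *ERB1*, a subunit of the Nop7 complex, had log2 ratios between −2.31 and −1.52 (median −2.15) at 15 min and between 0.60 and 1.10 (median 0.73) at 0 min, a response of −2.81 (SE 0.09, adjusted p = 6.25e-17). Its partners in the complex were at −2.60 (*YTM1*) and −2.27 (*NOP7*). *BRX1* (−2.56), *CIC1* (−2.47), *RLP7* (−2.43), *RRP1* (−2.29), *NOP15* (−2.08) and *EBP2* (4.01-fold lower at 15 min) made up the rest. *NOP15*, an RNA-binding protein of the spacer, had the largest standard error of the 50 genes (0.18), and its Cy5 arrays read 0.64 lower than its Cy3 arrays on average, in 8 of 8 groups.

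*RRS1* and *RPF2*, which bring the 5S particle into the large subunit, responded almost alike, at −2.41 (SE 0.08) and −2.40 (SE 0.07). The Noc proteins, which form heterodimers in the particle, were at −2.54 (*NOC2*), −2.36 (*NOC3*) and −2.18 (*MAK21*). All 5 of these genes fell at least 4-fold.

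All 13 measured genes of the other nucleolar factors fell, 7 of them at least 4-fold, with a median of −2.09. *PUF6*, an RNA-binding protein of the Pumilio family, had log2 ratios between −2.52 and −1.43 (median −2.07) at 15 min and between 0.47 and 1.19 (median 0.79) at 0 min, a response of −2.83 (SE 0.11, adjusted p = 2.52e-15). *NOP4*, which carries RNA recognition motifs, had log2 ratios between −2.30 and −1.23 (median −1.91) at 15 min and between 0.53 and 1.24 (median 0.91) at 0 min, a response of −2.77 (SE 0.09). *MAK16* (−2.59), *SSF1* (−2.53), *NIP7* (−2.50), *NOP13* (−2.27) and *RPF1* (−2.09) also fell at least 4-fold, while *NOP12* (−1.89), *CGR1* (−1.71), *NSA1* (−1.63), *NOP16* (−1.62), *LOC1* (−1.55) and *SSF2* (−1.23) fell between 2-fold and 4-fold. *LOC1*, a nucleolar RNA-binding protein that also takes part in the localization of *ASH1* mRNA, had log2 ratios between −1.24 and −0.54 (median −0.87) at 15 min and between 0.27 and 1.59 (median 0.58) at 0 min.

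*SSF1* and *SSF2* are near-identical paralogs, and their features may each take up RNA of the other gene, so that their separate values are uncertain. *SSF2* had log2 ratios between −1.32 and −0.31 (median −0.65) at 15 min and between 0.15 and 1.25 (median 0.51) at 0 min, a response of −1.23 (SE 0.11, adjusted p = 2.19e-09). *SSF1* had log2 ratios between −2.70 and −1.17 (median −1.65) at 15 min and between 0.20 and 1.53 (median 0.74) at 0 min. The features of both read lower in Cy5 than in Cy3, by 0.46 for *SSF1* and 0.36 for *SSF2* on average over the 8 groups.

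Of the nucleoplasmic factors, *SDA1*, needed for the particle to leave the nucleolus, was at −2.54 (SE 0.09). *RLP24*, which holds the place of a ribosomal protein until the particle reaches the cytoplasm, was at −2.23 (SE 0.07), and *NSA2* was at −2.08 (SE 0.07). The export and cytoplasmic factors ran between −3.01 for *ARX1* and −1.21 for *TIF6*, the smallest fall of the 50. *ARX1*, an export factor, had log2 ratios between −2.60 and −1.63 (median −2.29) at 15 min and between 0.61 and 1.23 (median 0.79) at 0 min, a response of −3.01 (SE 0.12, adjusted p = 1.69e-15), 8.06-fold lower. *NMD3*, the adaptor for the nuclear export receptor, was at −1.90 (SE 0.09). *SQT1*, a chaperone of a ribosomal protein that joins late, had log2 ratios between −1.32 and −0.60 (median −0.95) at 15 min and between 0.28 and 0.89 (median 0.47) at 0 min, a response of −1.47 (SE 0.08). *TIF6*, which keeps the subunits apart until the large one is ready, had log2 ratios between −1.29 and −0.40 (median −0.83) at 15 min and between 0.25 and 0.84 (median 0.35) at 0 min, a response of −1.21 (SE 0.10, adjusted p = 2.99e-10). Among the 4 measured factors of this role, *ARX1* alone fell at least 4-fold.

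**Figure D2:**
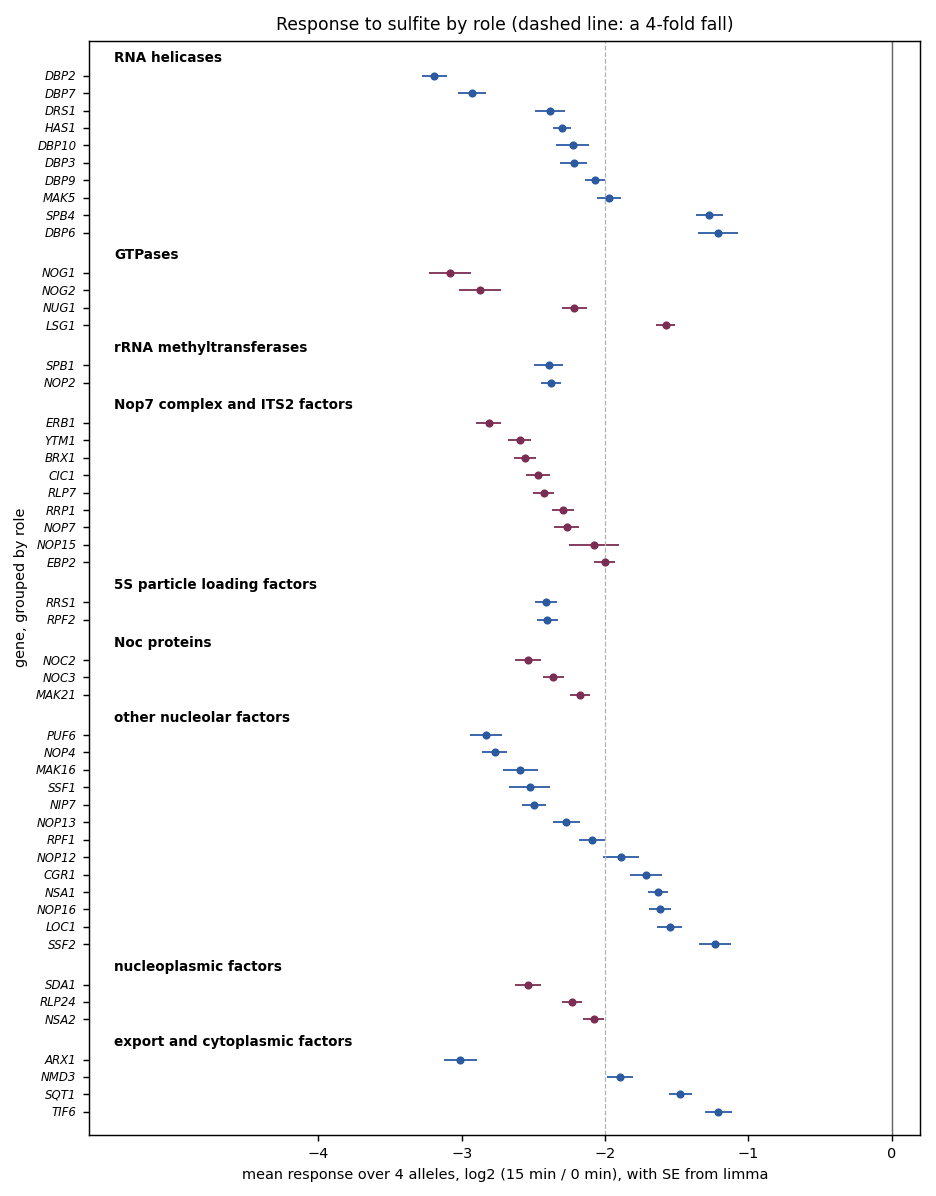
Mean response over the 4 alleles of each gene, as log2 of 15 min over 0 min (horizontal axis), with the SE from limma as bars and genes grouped by role (vertical axis); the dashed line marks a 4-fold fall. All 9 genes of the Nop7 complex and the internal transcribed spacer reach it, as against 1 of 4 export and cytoplasmic factors and 37 of all 50 genes. *EBP2* (−2.003, SE 0.07) barely reaches the line, and *NMD3* (−1.90, SE 0.09) is not far short of it. No difference between roles was tested.

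Genes of the same pathway outside the list were set beside these. Of 22 other measured genes of large subunit assembly, 21 fell and 0 rose (limma), with a median of −1.48. They ran down to −2.65 for *ECM1*, an export factor, and −2.56 for *MRT4*, a stalk assembly factor, with *MEX67*, an mRNA export receptor that also serves the subunit, highest at −0.18 (adjusted p = 0.0219). Of 54 genes of the small subunit processome and its later assembly, 54 fell, with a median of −2.24 and with *DHR2*, a helicase, at −4.13, *RRP12*, an export factor, at −3.15 and the kinase gene *RIO1* at −0.20. Of these 54 genes, 51 fell at least 2-fold and 32 at least 4-fold. The median of the 50 large subunit factors, −2.28, was thus close to that of the small subunit genes.

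Genes of RNA polymerase I and III and their factors moved less evenly: 26 of 36 fell and 6 rose, with a median of −1.35, from the polymerase I subunit gene *RPA34* (−2.42) and the polymerase I initiation factor gene *RRN3* (−2.32) to *TFC3*, a subunit of a polymerase III factor, which rose by 0.87. Of 80 ribosomal protein genes of the large subunit, 76 fell and 1 rose, with a median of −0.76. Their lowest values were those of *RPL18B* (−1.59) and *RPL12A* (−1.37), and *RPL15B* was highest at 0.72. Many of these genes have a near-identical copy, so single values may be shared between copies. No gene of this list fell 4-fold, and 12 fell at least 2-fold.

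Of the regulators of ribosomal gene transcription, 8 of 10 were measured, and *CRF1* and *TOD6* were not analysed here. The coactivator gene *IFH1* fell by 1.66, the kinase gene *SCH9* by 1.14, *RAP1* by 0.92, *FHL1* by 0.55 and *HMO1* by 0.35 on the log2 scale. The repressor genes *STB3* and *DOT6* rose by 0.65 and 0.55. *SFP1*, an activator of the regulon, was at 0.05 (SE 0.06, adjusted p = 0.457) and was not called.

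**Figure D3:**
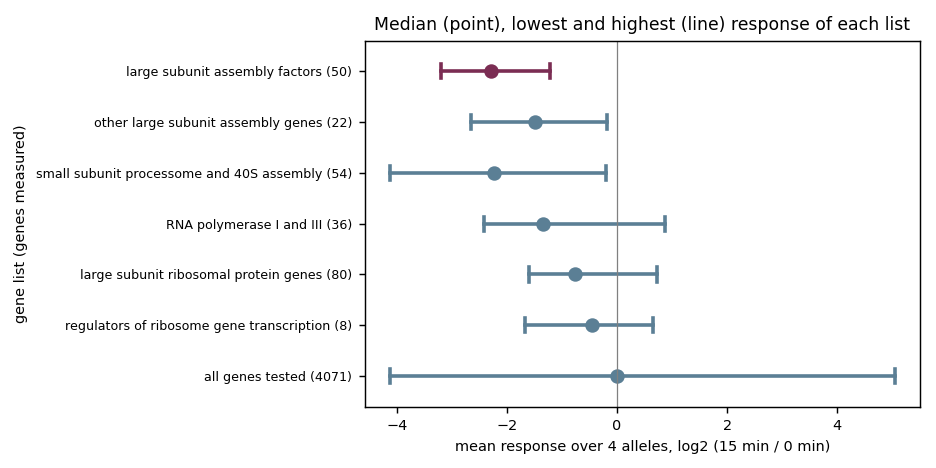
Median (point) and lowest to highest (line) mean response, as log2 of 15 min over 0 min (horizontal axis), of each gene list with its number of genes (vertical axis). The line of the 50 large subunit assembly factors, between −3.19 and −1.21, is the only one of the lists that stays below −1. In the small subunit list 51 of 54 genes also fell at least 2-fold. The lists were chosen with earlier results of these data known, so the contrast between lists is a description and not a test.

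The level of the group on an array was summed up by the median of its 50 genes. At 15 min this median was −1.39, −1.48 and −1.34 on the *S. paradoxus* arrays, −1.64, −1.67 and −1.45 on the C.P. arrays, −1.60, −1.69 and −1.03 on the P.C. arrays and −1.61, −1.60 and −1.71 on the *S. cerevisiae* arrays, named after the *FZF1* allele of the strain. All 3 *S. paradoxus* arrays at 15 min lay above the 3 *S. cerevisiae* arrays, while the arrays of each chimera overlapped those of both full length alleles, and replicate 3 of the P.C. chimera read higher than every other array at 15 min. At 0 min the median was 0.71, 0.77 and 0.78 on the *S. paradoxus* arrays, 0.69, 0.69 and 0.60 on the C.P. arrays, 0.75, 0.75 and 0.73 on the P.C. arrays and 0.86, 0.89 and 0.89 on the *S. cerevisiae* arrays. The 3 arrays of the *S. cerevisiae* allele, among them the one labelled replicate 2, lay above all 9 other arrays at 0 min.

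**Figure D4:**
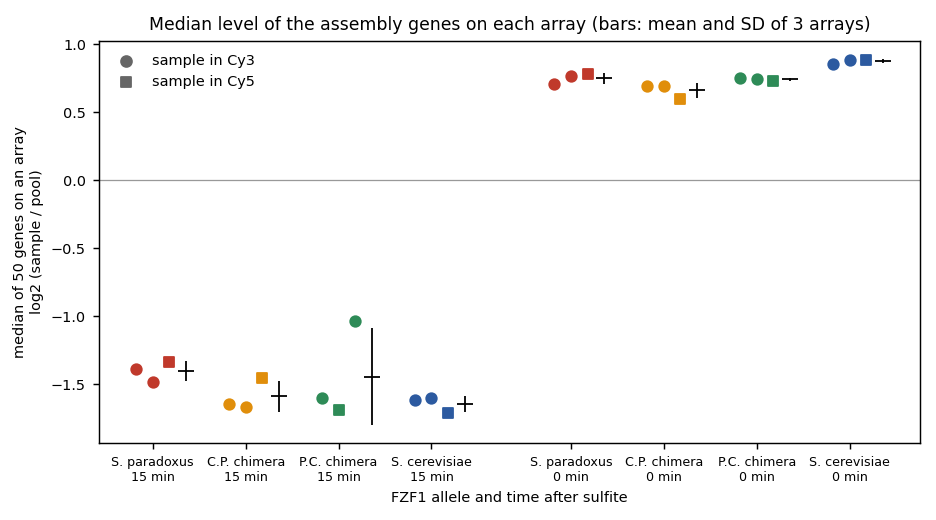
Median level of the 50 genes on each array, as log2 of sample over pool (vertical axis), by *FZF1* allele and time (horizontal axis), with circles for Cy3 and squares for Cy5 arrays and bars for the mean and SD of 3 arrays. All arrays at 15 min lie below −1 and all arrays at 0 min above 0.5.

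The median response of the 50 genes was −2.25 (*S. paradoxus*), −2.24 (C.P.), −2.17 (P.C.) and −2.46 (*S. cerevisiae*). It was −2.37 with the P.C. chimera without replicate 3 at 15 min, and −2.47 with the *S. cerevisiae* allele without the array labelled replicate 2 at 0 min. The order of the 50 genes was much the same with every allele, with Spearman's rho between 0.82 and 0.94 for the pairs of alleles over the 50 genes, which share their arrays and pool and are not independent replicates. Within Cy3 arrays the median response was −2.30 (*S. paradoxus*), −2.31 (C.P.), −2.03 (P.C.) and −2.46 (*S. cerevisiae*), and within Cy5 arrays −2.14 (*S. paradoxus*), −2.09 (C.P.), −2.36 (P.C.) and −2.50 (*S. cerevisiae*). It was below 0 for all 50 genes with each allele in each dye.

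The next question was whether the allele changed these genes. In limma, 0 of 50 were called for an effect of allele over both times, where 0.0737% of all genes were, and 4 of 50 had an unadjusted p under 0.05, against 5.9% of all genes. For allele by time 0 of 50 were called, as were 0% of all genes, and 5 of 50 had an unadjusted p under 0.05, against 5.35% of all genes. Without the array labelled replicate 2, these counts at an unadjusted p under 0.05 were 3 for allele (5.97% of all genes) and 1 for allele by time (4.62%), and 0 of 50 were called for either (0.172% and 0% of all genes). Without the arrays numbered 3, 5 of 50 were called for allele, against 5.72% of all genes. The analysis of variance named in the methods, in which every feature counts as 1 observation and P under 0.01 is not adjusted, gave 6 of 50 for allele and 8 of 50 for allele by time, against 12.3% and 11.6% of all genes. For time that model gave 50 of 50, against 81.4%. The study estimated the false positives of its model by permuting the sample labels.

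Between the full length alleles, 0 of 50 were called at 15 min (0.0491% of all genes), at 0 min (0%) or in response (0%) by limma. At an unadjusted p under 0.05 the counts were 8 at 15 min (8.57% of all genes), 4 at 0 min (2.85%) and 11 in response (9.6%). Without the array labelled replicate 2 they were 1 at 0 min (2.38%) and 5 in response (6.02%). The difference of responses, *S. paradoxus* minus *S. cerevisiae*, was above 0 for 45 of 50 genes, against 52.3% of all genes, with a median of 0.28 over the 50 genes and 0.02 over all genes. Without the array labelled replicate 2 it was above 0 for 45 as well, with a median of 0.29. It was also above 0 for 42 of 54 small subunit assembly genes and 16 of 22 other large subunit assembly genes. Their medians were 0.32 and 0.16. Genes share their arrays, so such counts of genes are not independent observations. Above 0 means that a gene fell less with the *S. paradoxus* allele. The SE of such a difference had a median of 0.25, and its 95% interval reached a median of 0.53 to either side. A difference of the size of the median was thus not detectable gene by gene in this fit, which had 3 arrays a group and no term for dye.

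For the chimeras against the same *S. cerevisiae* arrays, the difference of responses was above 0 for 46 of 50 genes with the C.P. chimera (47.8% of all genes) and 49 of 50 with the P.C. chimera (54.3%), with medians of 0.21 and 0.32. Since these 3 comparisons share the *S. cerevisiae* arrays, they are not independent. The P.C. values include replicate 3 at 15 min, which read higher than every other array at that time. Without it the median P.C. response was −2.37, against −2.46 with the *S. cerevisiae* allele. Of 54 small subunit assembly genes, 46 (C.P.) and 54 (P.C.) were above 0. Of 22 other large subunit assembly genes, 21 were above 0 with each chimera. limma called 0 of 50 genes in response for the C.P. chimera (0% of all genes) and 0 of 50 for the P.C. chimera, and 9 and 5 had an unadjusted p under 0.05, against 2.53% and 1.2% of all genes. Without the array labelled replicate 2, the counts at an unadjusted p under 0.05 were 5 for the C.P. chimera (1.99% of all genes) and 1 for the P.C. chimera (1.33%), and the medians 0.23 and 0.30. The difference of responses was then above 0 for 47 (C.P.) and 48 (P.C.) of 50 genes. Of the 4 alleles, the response was lowest with the *S. cerevisiae* allele for 42 of 50 genes, against 26.8% of all genes, and for 41 without that array (23.5%). These counts, and the counts above 0 for the P.C. chimera, all include P.C. replicate 3 at 15 min. They may depend on it and are not given without it.

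Group means were also compared at each time. At 0 min the *S. cerevisiae* group mean was the highest of the 4 for 38 of 50 genes, against 28.4% of all genes, and for 37 without the array labelled replicate 2 (27.1%). At 15 min it was the lowest of the 4 for 27 of 50, against 19.8% of all genes, a count that includes P.C. replicate 3. At 0 min all 3 arrays of the C.P. chimera lay below all 3 of the *S. cerevisiae* allele for 22 of 50 genes, against 6.26% of all genes. The *S. paradoxus* arrays did so for 4 (2.68%) and the P.C. arrays for 6 (3.91%). Without the array labelled replicate 2 these counts were 26 for the C.P. chimera (9.53%), 5 for the *S. paradoxus* allele (4.37%) and 10 for the P.C. chimera (6.8%). In limma 0 of 50 were called between the C.P. chimera and the *S. cerevisiae* allele at 0 min (0% of all genes), and 11 had an unadjusted p under 0.05 (4.25%). Without that array 4 did (3.24%). At 15 min all 3 *S. paradoxus* arrays lay above the 3 *S. cerevisiae* arrays for 11 of 50 genes, against 5.65% of all genes.

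**Figure D5:**
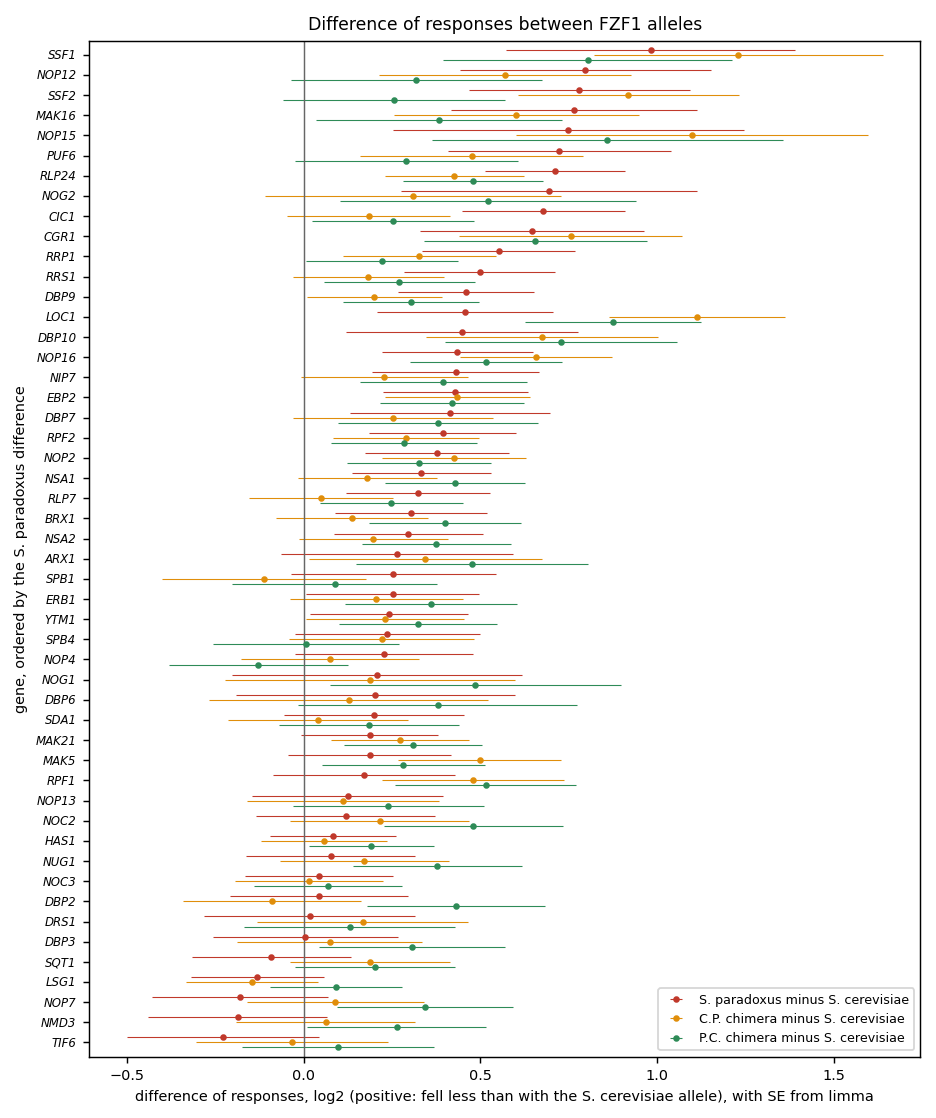
Difference of responses from the *S. cerevisiae* allele for each gene, on the log2 scale (horizontal axis), with SE from limma as bars, for the *S. paradoxus* allele and both chimeras; genes are ordered by the *S. paradoxus* difference (vertical axis). It is above 0 for 45, 46 and 49 of 50 genes with the *S. paradoxus* allele, the C.P. chimera and the P.C. chimera, and 0 of 50 passed the adjusted test in each.

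*LOC1* had the smallest p of the 50 genes for allele (adjusted p = 0.484 from limma) and for allele by time (adjusted p = 0.499). At 15 min it read −1.13, −0.84 and −1.13 on the *S. paradoxus* arrays, −0.77, −0.61 and −0.91 on the C.P. arrays, −1.05, −0.96 and −0.54 on the P.C. arrays and −0.80, −1.24 and −0.57 on the *S. cerevisiae* arrays, and these groups overlapped. At 0 min it read 0.66, 0.84 and 0.51 on the *S. paradoxus* arrays, 0.29, 0.28 and 0.29 on the C.P. arrays, 0.37, 0.66 and 0.27 on the P.C. arrays and 1.59, 1.29 and 0.99 on the *S. cerevisiae* arrays. All 3 *S. cerevisiae* arrays at 0 min lay above all 9 others. Its difference at 0 min, C.P. minus *S. cerevisiae*, was −1.005 (SE 0.18, adjusted p = 0.0579), which missed the threshold, and without the array labelled replicate 2 the adjusted p was 0.117. Under 37 other settings the difference lay between −1.16 and −0.85, with adjusted p between 0.00348 and 0.999, and it was called in 7 of them. Among these it was called when 1 array was left out, at adjusted p of 0.0341 (P.C., 15 min, replicate 3), 0.0252 (*S. cerevisiae*, 0 min, replicate 3), 0.0198 (*S. cerevisiae*, 15 min, replicate 2) and 0.0348 (*S. cerevisiae*, 15 min, replicate 3). The responses of *LOC1* were −1.70 (*S. paradoxus*), −1.05 (C.P.), −1.28 (P.C.) and −2.16 (*S. cerevisiae*). Its 2 features agreed least of the 50 genes, with a correlation of 0.92 and a mean absolute difference of 0.30.

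The other genes with the smallest p for allele were *NOP4*, *NOP13* and *CIC1*, with adjusted p from limma of 0.726, 0.791 and 0.792. *NOP4* at 15 min read −1.52, −1.76 and −1.23 on the *S. paradoxus* arrays, against −1.94, −2.02 and −2.09 on the *S. cerevisiae* arrays, without overlap, and at 0 min 1.08, 1.24 and 0.92 against 0.64, 0.87 and 0.88, again without overlap, with or without the array labelled replicate 2. *NOP4* thus read higher with the *S. paradoxus* allele at both times, without passing the adjusted test. *CIC1* at 15 min read −1.42, −1.54 and −0.98 on the *S. paradoxus* arrays, against −2.01, −1.67 and −2.20 on the *S. cerevisiae* arrays, a difference of 0.65 (SE 0.16, adjusted p = 0.272). At 0 min *CIC1* read 0.67, 0.71 and 0.90 on the *S. paradoxus* arrays, against 0.73, 0.73 and 0.90 on the *S. cerevisiae* arrays, and the groups overlapped, also without that array. *NOP13* at 0 min read 0.94, 1.26 and 0.72 on the *S. paradoxus* arrays, 0.52, 0.67 and 0.62 on the C.P. arrays and 0.86, 0.52 and 0.74 on the P.C. arrays, against 1.18, 0.92 and 0.92 on the *S. cerevisiae* arrays. The C.P. arrays lay below those of both full length alleles, and the P.C. arrays lay below the *S. cerevisiae* arrays and overlapped the *S. paradoxus* arrays. The *S. cerevisiae* mean of *NOP13* at 0 min was 1.01 ± 0.15 (SD, n = 3), and 1.05 without the array labelled replicate 2.

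For allele by time, *RLP24*, *SSF2* and *NOP16* followed *LOC1*, with adjusted p from limma of 0.845, 0.876 and 0.896. *RLP24* at 15 min read −1.16, −1.47 and −1.29 on the *S. paradoxus* arrays, against −1.63, −1.60 and −1.90 on the *S. cerevisiae* arrays, without overlap. At 0 min it read 0.69, 0.77 and 0.38 against 0.76, 1.07 and 0.93, where the groups overlapped by less than 0.01. The difference of its responses was 0.71 (adjusted p = 0.427), and 0.63 without the array labelled replicate 2. *NOP16*, a nucleolar factor, read 0.65, 0.81 and 0.60 at 0 min on the *S. paradoxus* arrays, 0.45, 0.57 and 0.53 on the C.P. arrays and 0.58, 0.67 and 0.47 on the P.C. arrays, against 0.99, 1.27 and 0.70 on the *S. cerevisiae* arrays. The arrays of both chimeras lay below the *S. cerevisiae* arrays, and those of the *S. paradoxus* allele overlapped them. At 15 min the group means were −0.90 (*S. paradoxus*), −0.84 (C.P.), −0.93 (P.C.) and −1.03 (*S. cerevisiae*). *NOP16* responded by −1.59 (*S. paradoxus*), −1.36 (C.P.), −1.50 (P.C.) and −2.02 (*S. cerevisiae*). Its C.P. difference of responses was 0.66, and 0.52 without that array.

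The widest differences of responses between the full length alleles were those of *SSF1*, *NOP12* and *SSF2*. *SSF1* at 15 min read −1.21, −1.29 and −1.65 on the *S. paradoxus* arrays, against −1.65, −1.80 and −2.70 on the *S. cerevisiae* arrays, and at 0 min 0.85, 1.24 and 0.65 against 1.45, 1.53 and 0.72. The arrays at 0 min overlapped, and those at 15 min came within 0.01 of each other. The difference of its responses was 0.98 (SE 0.41, adjusted p = 0.496), and 0.83 without the array labelled replicate 2. *SSF2* differed by 0.78 (SE 0.31, adjusted p = 0.496) and by 0.71 without that array. At 0 min *SSF2* read 0.34, 0.99 and 0.20 on the *S. paradoxus* arrays and 0.16, 0.39 and 0.15 on the C.P. arrays, against 1.25, 1.14 and 0.63 on the *S. cerevisiae* arrays. Of these 2 groups, the C.P. arrays lay wholly below the *S. cerevisiae* arrays and the *S. paradoxus* arrays did not.

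*NOP12*, an RNA-binding protein, read −0.62, −0.69 and −1.04 at 15 min on the *S. paradoxus* arrays, against −1.32, −1.20 and −1.69 on the *S. cerevisiae* arrays, without overlap. At 0 min it read 0.60, 1.25 and 0.34 against 0.85, 1.23 and 0.66, with overlap. The difference of its responses was 0.80 (SE 0.36, adjusted p = 0.503), and 0.64 without the array labelled replicate 2. In *SSF1*, *SSF2* and *NOP12* the Cy5 array of a group mostly read lowest, by 0.46, 0.36 and 0.37 on average over the groups. Within Cy3 arrays the differences of responses were 0.91 (*SSF1*), 0.89 (*SSF2*) and 0.72 (*NOP12*).

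At the other end, *TIF6*, *NMD3* and *NOP7* had the lowest differences of responses, at −0.23 (SE 0.27), −0.19 (SE 0.25) and −0.18 (SE 0.25), all within 1 standard error of 0. *TIF6* at 15 min read −1.29, −1.17 and −0.40 on the *S. paradoxus* arrays, against −0.94, −0.86 and −0.65 on the *S. cerevisiae* arrays, with overlap. *NMD3* at 15 min read −1.53, −1.26 and −1.29 on the *S. paradoxus* arrays, against −1.17, −1.12 and −1.45 on the *S. cerevisiae* arrays. *NOP7* at 15 min read −1.89, −1.79 and −1.51 on the *S. paradoxus* arrays, against −1.60, −1.75 and −1.12 on the *S. cerevisiae* arrays, and the groups overlapped for both genes. The responses were −2.12 (*S. paradoxus*) and −1.93 (*S. cerevisiae*) for *NMD3*, and −2.51 (*S. paradoxus*) and −2.33 (*S. cerevisiae*) for *NOP7*. Without the array labelled replicate 2 the differences were −0.18, −0.18 and −0.09 for *TIF6*, *NMD3* and *NOP7*.

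Split by region of *FZF1*, limma called 0 of 50 for the 5′ noncoding region in response (0% of all genes), 0 of 50 for the coding region in response (0%) and 0 of 50 for noncoding by coding averaged over the times (0.0246%). At an unadjusted p under 0.05 the counts were 2 (1.11% of all genes), 4 (6.66%) and 6 (14.5%), and without the array labelled replicate 2 they were 2 (1.03%), 3 (4.91%) and 4 (12.4%). Without the arrays numbered 3, limma called 4 for the coding region (6.04% of all genes) and 10 for noncoding by coding (18.2%). For the coding region the smallest p was that of *SSF2*, whose response was higher by 0.72 with the *S. paradoxus* than with the *S. cerevisiae* coding region (SE 0.22, adjusted p = 0.711). For the noncoding region it was that of *RLP24*, higher by 0.38 with the *S. paradoxus* noncoding region (SE 0.14, adjusted p = 0.999).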

How the data were processed

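The deposited values give log2 of sample over pool, which the authors median normalized on each Agilent yeast V2 2-colour array, with dye swaps already turned; background correction, dye normalization and the filter behind empty features are not given in the sources used here, and no intensities were used. Features were joined to genes by position on the grid, a match that rests on the data: the 2 features of a gene then correlated with a median of 0.928 over 4060 genes, while joining by equal numbers gave −0.01 over 2684 genes. The features of a gene were averaged, and the median gene of every array was set to 0. Group means (8) were fitted with limma 3.58.1 under R 4.3.3 for 4071 genes with at least 2 arrays in every group, with Benjamini-Hochberg adjustment within each contrast over all genes and a threshold of 0.05. The fit was tested on simulated data with independent noise for each gene and array. These lacked the correlations by dye and replicate number of the real arrays, so the test does not cover them. The response is 15 min minus 0 min, and a region effect is the *S. paradoxus* minus the *S. cerevisiae* form. Tables and plots used Python 3.11.15, pandas 2.3.3 and matplotlib 3.10.9. The number of arrays limits the precision, and the main fit held no term for dye or replicate number. The members are listed by function, but this group and the gene lists were chosen with earlier results of these data known. Values on single arrays, or their lowest, median and highest at each time, are given for the 8 lowest and 6 highest mean responses, the 4 smallest p for allele and for allele by time, the 3 highest and 3 lowest differences of responses, and *SSF1* and *SSF2*. Alternatives covered centring, quantile normalization, dye, blocks, features, weights, a robust fit, the threshold, the study's model, and leaving out arrays and replicate numbers; the values within Cy5 arrays and the dye differences were added after seeing the data.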

Additional observations from a re-analysis of the deposited data

How the results depend on the processing

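All 50 genes were below 0 and called in mean response under all 39 fits, where between 70.5% and 84% of all genes were called in either direction. The median response of the 50 genes lay between −2.41 (quantile normalization) and −2.25 (without replicate 1), with −2.29 within Cy5 arrays. With single alleles, 3 calls were lost: *SSF2* with the C.P. chimera without replicate 1 (−0.86, adjusted p = 0.0527), and *DBP6* with the P.C. chimera without replicate 1 (−0.94, 0.0791) and without replicate 2 (−0.64, 0.17). Counts of allele calls moved from 0 as follows, with the share of all genes called, and the cause was not tested. With array weights they were 2 for allele by time (3.32%), 8 between the full length alleles at 15 min (26.7%), 2 in their difference of responses (5.04%), 1 for the coding region in response (0.54%) and 2 for noncoding by coding (13.1%). With Cy3 arrays alone they were 1 for the coding region (3.76%) and 2 for noncoding by coding (12.5%). Leaving out replicate numbers or single arrays gave between 0 and 5 for allele, 0 and 4 for the coding region and 0 and 10 for noncoding by coding, the highest each time without replicate 3 (5.72%, 6.04% and 18.2% of all genes), which is the Cy5 array in 7 of 8 groups. The study's analysis of variance gave 6 for allele (12.3%) and 8 for allele by time (11.6%). The *SSF2* difference of responses passed with array weights (0.96, adjusted p = 0.0232), and so did the *LOC1* difference of responses between the C.P. chimera and the *S. cerevisiae* allele (1.48, 0.00359) and the *LOC1* difference at 0 min between the P.C. chimera and that allele (−0.95, 0.0489). Without replicate 3, *LOC1* (−1.16, 0.0449) and *SSF1* (−0.95, 0.0449) passed between the C.P. chimera and the *S. cerevisiae* allele at 0 min. That fit kept the *S. cerevisiae* array labelled replicate 2, whose *FZF1* reading goes against its label. With that array left out and the arrays numbered 3 kept, neither gene passed. The *SSF1* difference was then −0.56, and *LOC1* had an adjusted p of 0.117 from limma. The *NOP7* difference of responses between the full length alleles lay between −0.31 without replicate 2 and 0.0021 without replicate 3 of the *S. cerevisiae* arrays at 15 min. The median difference of responses between the full length alleles lay between 0.17 and 0.40.

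The labels do not say that a replicate number marks a shared culture. Of 12 same-number pairs of arrays at 15 and 0 min, 8 had deviations that correlated above 0.1 (−0.47 to 0.76). Most of the 12 pairs also shared a dye. Across groups, the median correlation of deviations was 0.35 for arrays of the same dye and −0.41 for arrays of opposite dyes. It was 0.36 for the same replicate number and −0.23 for other numbers. What underlies these correlations was not tested. With the replicate number or the culture as a block, 50 of 50 genes were called in mean response (82.5% and 82.2% of all genes) and 0 of 50 for allele by time, as without it. No intensities were used, so signal over background is unknown.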
